A study of Mus musculus with 6 samples.

Results

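The endoderm lineage markers examined here are 10 genes of primitive and definitive endoderm, Gata4, Gata6, Sox7, Sox17, Foxa2, Hnf4a, Pdgfra, Dab2, Amn and Cubn. They were found as the non-control probes whose RefSeq accession maps to these genes, which gave 13 probes, and they are 10 of the 20638 genes that the array's accessions name. J1 mouse embryonic stem cells, an established line of strain 129S4/SvJae adapted to growth on gelatin, were kept for 24 h in serum-replacement medium with 1000 U/ml of the cytokine LIF and either DMSO (3 arrays) or 3 µM SB431542 (3 arrays). SB431542 blocks the type I receptors through which Nodal, activin and TGF-beta act, and DMSO is its solvent. All 6 samples are total RNA of this line, with 1 Agilent array labelled with Cy3 per sample. The labels do not say that replicates were separate cultures, so a p-value here reflects only how far these samples vary, and that variation may be technical.

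In the blastocyst, GATA6 and then GATA4, SOX17 and SOX7 set up the primitive endoderm, the layer that goes on to line the yolk sac, while NANOG marks the neighbouring epiblast from which embryonic stem cells derive. PDGFRA is the receptor by which primitive endoderm cells are often recognised, and DAB2, amnionless and cubilin belong to the uptake machinery of the visceral endoderm. FOXA2 and SOX17 serve again in definitive endoderm, which forms later during gastrulation under Nodal signals. Embryonic stem cell cultures hold a small and variable fraction of cells with primitive endoderm transcripts.

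In cells kept with SB431542, Pdgfra was higher and Cubn was lower than with DMSO, and the other 8 markers did not pass the test. Transcript levels are given as log2 of the processed spot signal relative to the 75th percentile of the same array, and "rose" and "fell" are used of genes past an adjusted p of 0.05 in limma, adjusted over all 25899 features tested. Pdgfra rose by 0.34 ± 0.05 (SE, 3 arrays per group, limma adjusted p = 0.012), which is 1.27-fold. Cubn fell by 0.51 ± 0.10 (SE, limma adjusted p = 0.0233) on the log2 scale, to 70.4% of the control level. Of all features, 12.5% passed this test, 5.16% higher and 7.37% lower. Against that background, 1 of 10 markers higher and 1 of 10 lower is not a result about the set. The median change of the 10 markers was -0.11 on the log2 scale, beside 0.02 for all features, and their median absolute change was 0.25, beside 0.14. In bulk RNA, fewer cells of a type and less RNA per cell cannot be told apart.

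**Figure D1:**
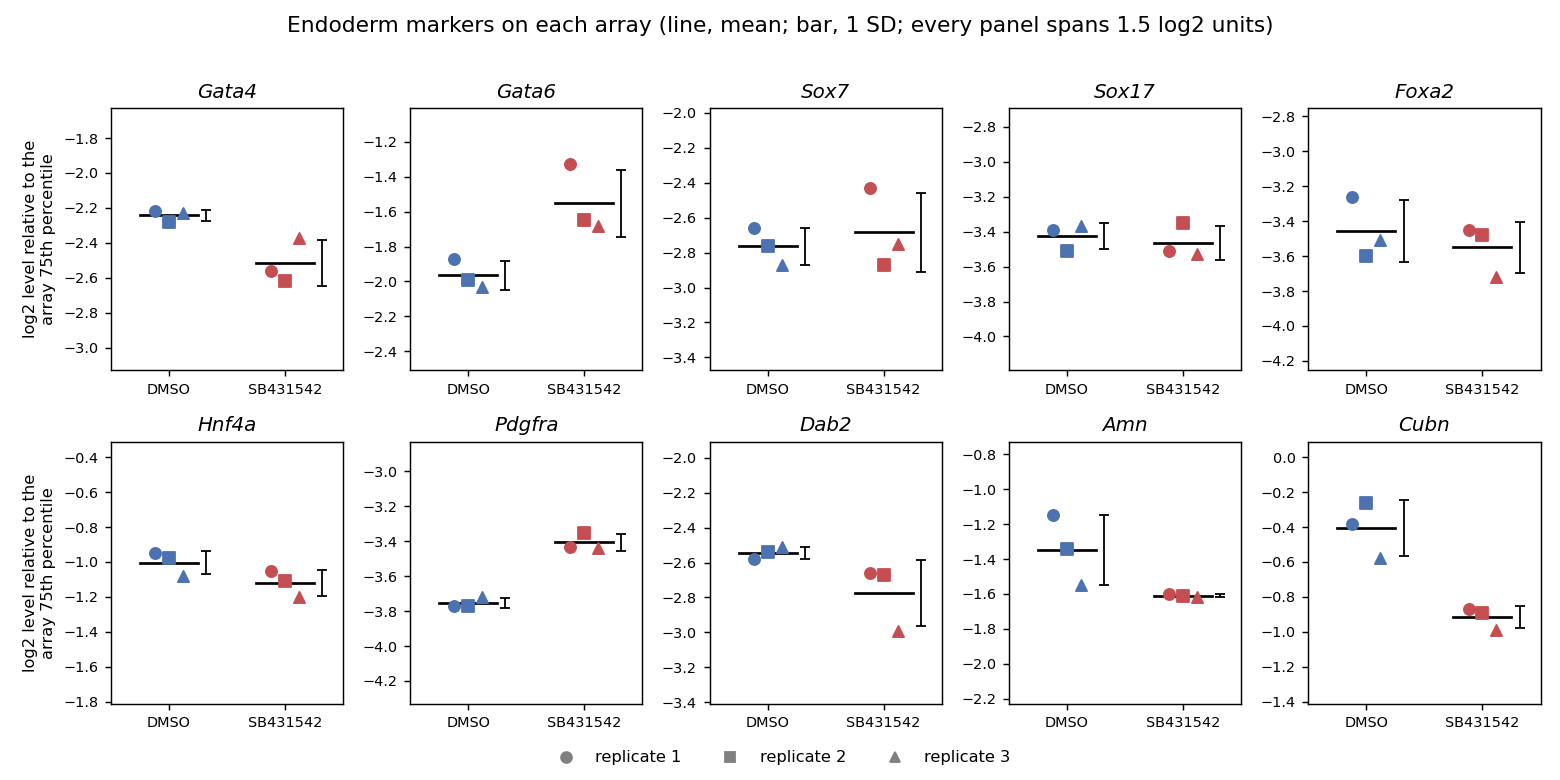
Level of each endoderm marker on every array, as log2 of the signal relative to the array's 75th percentile (vertical axis), for DMSO (blue) and SB431542 (red), with symbols for the replicate, a line for the mean and a bar for 1 SD. The 3 SB431542 arrays lie above the DMSO arrays for Gata6 and Pdgfra and below them for Gata4, Dab2, Amn and Cubn, and the groups overlap for the other 4 genes.

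Of 7 targets of Nodal and Smad signalling, 7 fell, beside 7.37% of all features. This list was chosen with earlier results of these data known, and its Nodal and Tdgf1 are counted again in other lists below. Lefty2, a Nodal antagonist that Nodal itself induces, lay at 2.99, 2.99 and 2.91 with DMSO and at -1.71, -1.85 and -2.09 with SB431542, and Skil, a feedback repressor of Smad signalling, fell by 1.34 ± 0.07 on the log2 scale. Lefty1 fell too (limma adjusted p = 3.16e-05), and 2 of 3 SB431542 arrays still measured it above background. All 10 embryonic stem cell markers examined, Pou5f1, Sox2 and Nanog among them, were well above background on every array. The markers that define other cell types were partly absent. Of 12 embryonic fibroblast markers, Postn, Lum and Prrx1 were well above background on 0 arrays, and of 10 trophoblast markers Elf5, Hand1 and Tpbpa were at 0 arrays likewise. On all 6 arrays, however, 7 of these fibroblast markers and 7 of these trophoblast markers were well above background. The summed linear level of the measured trophoblast markers (7 genes, in multiples of the array's 75th percentile) was 14.5 to 15.3 with DMSO and 29.8 to 30.3 with SB431542. Among them Tfap2c (1.22 ± 0.05), Gata3 (0.97 ± 0.11) and Esx1 (0.43 ± 0.06) rose and the other 4 did not pass. That is 42.9% of these genes, beside 12.5% of all features. Tfap2c carries most of this sum, and without it the other 6 genes summed to 3.63 to 3.73 with DMSO and 3.44 to 4.08 with SB431542, which overlap. The summed level of the fibroblast markers (9 genes) was 3.15 to 3.27 and 2.48 to 2.70, and that of the neuroectoderm markers (7 genes) 8.78 to 8.92 and 7.64 to 8.53. Without Thy1 the other 8 fibroblast genes summed to 1.78 to 1.79 and 1.16 to 1.32. Without Tubb3 the other 6 neuroectoderm genes summed to 4.78 to 4.88 and 3.42 to 3.75. Sox1, Nes and Zic1 fell and 0 of these 7 rose, though another probe gave 0.07 for Sox1 and 0.11 for Zic1. The share past the threshold was 42.9% here too, beside 12.5% of all features. The summed level of the embryonic stem cell markers (10 genes) was 665.7 to 686.4 and 521.2 to 573.8. Dppa5a carries most of that difference, and the other 9 genes summed to 289.4 to 296.5 and 265.1 to 285.8. Of these 10 markers 1 rose and 3 fell, a share of 40% beside 12.5% of all features, and Pou5f1, Sox2 and Nanog did not pass. Slide 1 held all 3 DMSO arrays with SB431542 replicates 1 and 2. The third inhibitor array, replicate 3, was alone on slide 2 and alone in its scan.

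Promoter sequence was at hand for 6 of the 10 markers (RefSeq, GRCm38.p6), and it is shown for the pair that changed, as the 250 bases before the transcript start listed there, 5′ to 3′ on the strand of the gene. The Pdgfra window is chr5:75152001-75152250 on the plus strand and the Cubn window is chr2:13491877-13492126 on the minus strand. Capitals mark short words of factors of this lineage and pathway, found on either strand.
Pdgfra: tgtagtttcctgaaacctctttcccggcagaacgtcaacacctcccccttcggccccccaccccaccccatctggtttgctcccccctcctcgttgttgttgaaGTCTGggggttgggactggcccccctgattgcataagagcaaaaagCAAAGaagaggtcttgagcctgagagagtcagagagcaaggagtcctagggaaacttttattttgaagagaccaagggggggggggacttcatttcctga
Cubn: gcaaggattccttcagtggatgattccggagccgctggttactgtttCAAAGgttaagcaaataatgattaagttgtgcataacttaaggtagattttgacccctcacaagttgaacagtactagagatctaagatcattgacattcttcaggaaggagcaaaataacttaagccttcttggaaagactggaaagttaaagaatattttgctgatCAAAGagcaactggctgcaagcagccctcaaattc
The words searched on both strands were GATAA for GATA factors, CAGAC for Smads, GTTAAT for HNF1, CAAAG for an HNF4 half-site, TGTTTNC for forkhead factors and ACAAT for SOX factors. Pdgfra held 1 CAGAC word, on the minus strand 146 bases before the start, and 1 CAAAG word 100 bases before it. Cubn held 2 CAAAG words, 203 and 35 bases before the start. The marked words do not overlap. Neither window held the GATA, HNF1, forkhead or SOX word. Of 32851 promoter windows of this length, 42.2% hold CAGAC and 48.6% hold CAAAG, so both words are common, while GATAA is in 22.6%, GTTAAT in 6.4%, TGTTTNC in 17.8% and ACAAT in 27.7%. The 2 windows also differ in base composition, with 54.4% G or C for Pdgfra and 39.6% for Cubn. A match of such letters is a description of the window and not a binding site.

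None of the 6 transcription factor genes passed the test, and the GATA genes came nearest, with changes of opposite sign. Gata6, which is needed for primitive endoderm to form, lay at -1.87, -1.99 and -2.03 with DMSO and at -1.33, -1.65 and -1.68 with SB431542. The groups did not overlap, and the value of SB431542 replicate 1 stood above those of the other two by more than the gap between the groups, which was 0.19. Its log2 change was 0.41 ± 0.11 (SE, limma adjusted p = 0.0663, unadjusted p = 0.0099), with a 95% interval of 0.14 to 0.68. Gata4, which acts beside and after Gata6, lay at -2.22, -2.28 and -2.23 with DMSO and at -2.56, -2.62 and -2.37 with SB431542. Again the groups did not overlap, with every inhibitor array lower and replicate 3 the nearest to the controls. The log2 change of Gata4 was -0.27 ± 0.08 (SE, limma adjusted p = 0.0783, unadjusted p = 0.013). On slide 1 alone, which leaves out SB431542 replicate 3 and is also the fit with slide as a block, it was -0.35 ± 0.05 with an adjusted p of 0.0207, past the threshold. Gata6 was 0.47 ± 0.12 there, with an adjusted p of 0.069. Gata6 passed (adjusted p = 0.0339) where the variance was fitted with an intensity trend. With normexp background correction the changes were smaller, 0.23 ± 0.07 for Gata6 and -0.18 ± 0.06 for Gata4, and neither passed.

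The SOX and forkhead genes showed no difference beyond the spread of the arrays. Sox7, a gene of parietal and visceral endoderm, lay at -2.66, -2.76 and -2.87 with DMSO and at -2.43, -2.87 and -2.75 with SB431542. The groups overlapped, with SB431542 replicate 1 highest, and the change was 0.08 ± 0.13 (95% interval -0.23 to 0.39). Sox17, a regulator of primitive and definitive endoderm, lay between -3.51 and -3.37 with DMSO and between -3.53 and -3.35 with SB431542, a change of -0.04 ± 0.07 (95% interval -0.22 to 0.14). A dimmer Sox17 probe gave 0.09 ± 0.16, so the probes differ in sign and neither departs from 0 by more than its error. Foxa2, a forkhead factor of definitive endoderm and later of liver and floor plate, lay at -3.26, -3.60 and -3.51 with DMSO and at -3.45, -3.48 and -3.72 with SB431542. Its change was -0.10 ± 0.12 (95% interval -0.39 to 0.19). Hnf4a, a nuclear receptor of visceral endoderm and liver, lay at -0.95, -0.98 and -1.08 with DMSO and at -1.05, -1.11 and -1.20 with SB431542, where the lowest control overlapped the highest inhibitor array. Its change was -0.12 ± 0.07 (limma adjusted p = 0.318, 95% interval -0.28 to 0.05), and -0.076 on slide 1 alone. For Sox7, Sox17, Foxa2 and Hnf4a these intervals hold changes of either sign, and a missed threshold does not show that a level stayed the same.

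**Figure D2:**
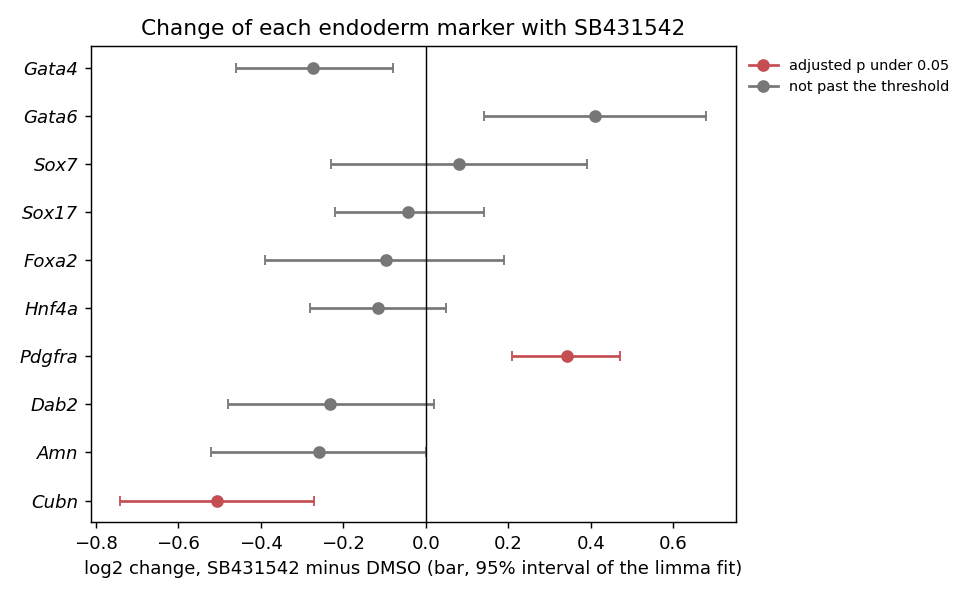
Log2 change of each endoderm marker (SB431542 minus DMSO, horizontal axis) from the probe that stands for the gene, with the 95% interval of the limma fit on 3 arrays per group, red where the adjusted p is under 0.05. Pdgfra at 0.34 and Cubn at -0.51 are past the threshold, and the intervals of Gata6 and Gata4 leave out 0 before adjustment.

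Pdgfra, the receptor for PDGF-A that primitive endoderm cells carry, lay at -3.77, -3.77 and -3.72 with DMSO and at -3.43, -3.35 and -3.44 with SB431542, so every inhibitor array was above every control, with a gap of 0.28 against an SD of 0.03 in DMSO and 0.05 in SB431542. On slide 1 alone the change was 0.36 ± 0.05 (limma adjusted p = 0.0203). Leaving out DMSO replicate 1 gave an adjusted p of 0.0567 and leaving out replicate 2 gave 0.0632. With an intensity trend in the variance the SE was 0.12 and the limma adjusted p 0.0876. The mean level of Pdgfra with DMSO, -3.75, was the lowest of the 10 markers. Its change ran from 0.22, with normexp background correction, to 0.36 over the settings tried. Pdgfra is also a gene of fibroblasts. Of 9 measured fibroblast markers 0 rose and 4 fell, Col1a2 (-1.05 ± 0.12), Fbln2 (-0.37 ± 0.07), Dcn and Pdgfrb. That is 44.4% of those measured, beside 12.5% of all features. The other 5 did not pass. Of those, Col6a1 was higher on every inhibitor array (0.37 ± 0.095, limma adjusted p = 0.0584). Col1a1 was at -0.24, Col3a1 at 0.03, Thy1 at -0.07 and Twist1 at -0.06. Col1a2 passed in 6 of the 6 fits that left out an array, Fbln2 and Dcn in 2 each and Pdgfrb in 1. The falls numbered 1 without any 1 DMSO array and 2 without SB431542 replicate 2. With SB431542, Dcn was well above background on 0 arrays. Whether these falls follow the number of fibroblasts was not tested, nor was the part of other cell types in these values.

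The ligands and the second receptor of the PDGF pathway moved in both directions. Pdgfa, a ligand that signals through PDGFRA, rose by 0.51 ± 0.06 on the log2 scale, from 4.20, 4.25 and 4.34 to 4.81, 4.79 and 4.73. Pdgfc, another ligand of this receptor, lay at 0.16, 0.13 and 0.08 with DMSO and at -1.36, -1.41 and -1.61 with SB431542. It fell by 1.58 ± 0.08 (limma adjusted p = 0.000435). Every control array exceeded every inhibitor array by more than 1 log2 unit. Pdgfb fell by 0.51 ± 0.08 on its brightest probe, while another probe gave -0.30. Pdgfd was well above background on 0 arrays. Thus 1 of 3 measured ligands rose and 2 fell, a share of 100% past the threshold, beside 12.5% of all features. Pdgfrb, the paralogous receptor, lay at -2.51, -2.57 and -2.58 with DMSO and at -2.83, -3.07 and -3.09 with SB431542, and fell by 0.45 ± 0.08 (limma adjusted p = 0.0229). It was past the threshold in 1 of the 6 fits that each left out an array, and Pdgfb in 3 of 6, failing without any 1 DMSO array (adjusted p = 0.0645, 0.0702 and 0.0579 without replicates 1, 2 and 3), whereas Pdgfa and Pdgfc passed in 6 of 6.

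On the probe that stands for the gene, Cubn, Amn and Dab2 were each lower on every inhibitor array than on any control. Of all features, 17.3% lay lower without overlap in this way. Of these genes Cubn alone passed the test. Cubilin is a large receptor of the visceral endoderm surface, amnionless carries it to the membrane, and DAB2 is the adaptor that links it and megalin to clathrin. Cubn lay at -0.38, -0.26 and -0.58 with DMSO and at -0.87, -0.89 and -0.99 with SB431542. The groups did not overlap, with a gap of 0.28. Cubn was past the threshold in 1 of the 6 fits that left out an array. Its adjusted p was 0.0876 without DMSO replicate 1 and 0.0729 without DMSO replicate 2. Leaving out SB431542 replicate 1 gave 0.0544 and replicate 2 gave 0.063. On slide 1 alone, without replicate 3, the change was -0.47 ± 0.11 with an adjusted p of 0.0586, and with no filter on dim probes the adjusted p was 0.052. A second, dimmer Cubn probe was well above background on 3 DMSO arrays and on 0 SB431542 arrays. Its values, -5.20, -5.46 and -5.33 against -6.03, -5.38 and -5.68, overlapped between the groups (limma adjusted p = 0.245 with every probe fitted on its own), so this probe gives no call.

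Amn lay at -1.15, -1.34 and -1.55 with DMSO and at -1.60, -1.61 and -1.62 with SB431542. The inhibitor arrays lay close together while the controls spread widely, and the lowest control lay 0.04 above the highest inhibitor array, so the change of -0.26 ± 0.11 missed the threshold (limma adjusted p = 0.181). It was -0.16 ± 0.08 (adjusted p = 0.356) without DMSO replicate 1 and -0.36 ± 0.08 (adjusted p = 0.0824) without DMSO replicate 3. Dab2 lay at -2.58, -2.54 and -2.51 with DMSO and at -2.66, -2.67 and -2.99 with SB431542, where replicate 3 stood below the other two. Its change of -0.23 ± 0.10 (limma adjusted p = 0.209) was -0.12 ± 0.05 on slide 1 alone (adjusted p = 0.188). The slide of replicate 3 and its own deviation cannot be told apart. Lrp2, which encodes megalin, lay at 2.59, 2.55 and 2.57 with DMSO and at 2.48, 2.40 and 2.36 with SB431542, a change of -0.16 ± 0.05 that did not pass (limma adjusted p = 0.121).

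Among 14 measured partners of this uptake route, 0 rose and 3 fell, and the median change was -0.09. The share past the threshold was 21.4%, beside 12.5% of all features. Lrpap1, the chaperone of megalin and related receptors, fell by 0.52 ± 0.05 on the log2 scale, from 3.51, 3.48 and 3.54 to 3.01, 2.98 and 2.99, and passed in 6 of the 6 fits without an array. Tcn2, the carrier of vitamin B12 in plasma, fell by 0.38 ± 0.07, and Cltb, a clathrin light chain, by 0.35 ± 0.08. Cltb was past the threshold in 1 of these 6 fits and Tcn2 in 3. Accordingly 1 partner fell without any 1 DMSO array and 2 without SB431542 replicate 1 or 2. The gastric partner gene Cblif was well above background on 0 arrays.

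Groups did not overlap for 6 of the 10 markers, 2 higher and 4 lower with SB431542, while 35.9% of all features did not overlap, 18.6% higher and 17.3% lower. The 10 genes also varied between arrays of 1 group. SB431542 replicate 1 held the highest value of its group for 7 of the 10 markers, Amn, Cubn, Dab2, Foxa2, Gata6, Hnf4a and Sox7, beside 32% of all features. SB431542 replicate 3, the array on slide 2, held the lowest value for 8 of 10, beside 42.2% of all features. Among the controls, DMSO replicate 1 was the highest for 6 of 10 (33% of all features) and replicate 3 the lowest for 5 of 10 (32.2%). The dimmer Sox17 probe was also highest on replicate 1 and lowest on replicate 3 of each group, at -3.82, -4.07 and -4.18 with DMSO and -3.65, -3.95 and -4.18 with SB431542. The Sox17 probe that stands for the gene did not. SDs over the markers ran from 0.03 to 0.20 with DMSO and from 0.012 to 0.23 with SB431542, and 7 of 10 markers, beside 68.7% of all features, varied more with SB431542.

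Other genes of primitive and extraembryonic endoderm included rises and falls. The 25 that were measured had a median of -0.20, and 4 of them rose and 7 fell. That is 44% of the list, beside 12.5% of all features, and the median absolute change was 0.29, beside 0.14. The list was chosen with earlier results of these data known. Serpinh1, a collagen chaperone, fell by 0.84 ± 0.06 on the log2 scale and Spink1, a protease inhibitor gene of the endoderm and gut, fell by 1.00 ± 0.10, from 0.53, 0.50 and 0.31 to -0.46, -0.47 and -0.71. Apoe, a lipid carrier, rose by 0.53 ± 0.05 and Plat, the tissue plasminogen activator made by parietal endoderm, rose by 0.89 ± 0.10, from -4.69, -4.43 and -4.55 to -3.62, -3.80 and -3.57. These 4 genes passed in 6 of 6 fits that left out an array. Of the laminin genes, Lamb1 fell by 0.33 ± 0.08 on the log2 scale (limma adjusted p = 0.0417) but passed in 1 of those 6 fits, and Lama1 (0.16 ± 0.06) and Lamc1 (-0.13 ± 0.06) did not pass. Lamb1 was chosen after its values were seen. Beyond these, the secreted yolk sac products Afp and Apoa1 were well above background on 2 and 0 arrays. The count of rises was 2 without DMSO replicate 1, 2 or 3 and without SB431542 replicate 2 or 3, and that of falls 2 and 3 without DMSO replicates 2 and 3.

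**Figure D3:**
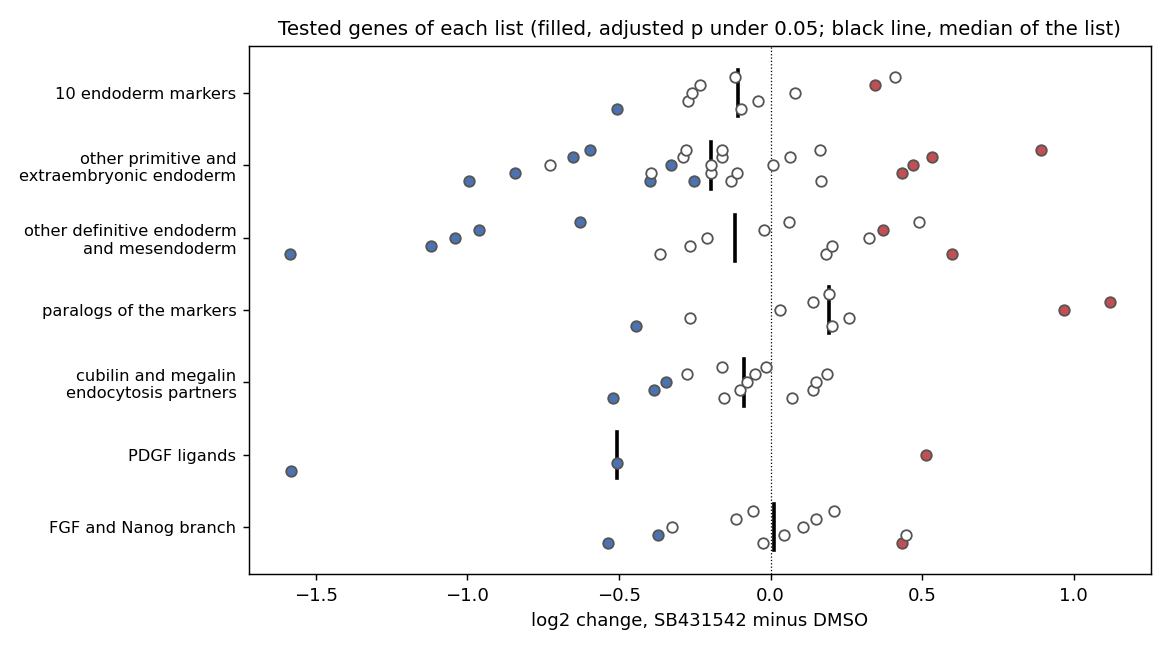
Log2 change (SB431542 minus DMSO, horizontal axis) of each tested gene of the 10 endoderm markers and of 6 related lists, 1 point per gene, filled red where it rose and blue where it fell at an adjusted p under 0.05, with a black line at the list's median. The markers lie between -0.51 and 0.41, and the related lists reach from -1.59 to 1.12.

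Genes of definitive endoderm and mesendoderm included larger falls than any of the 10 markers. Of 16 measured, 2 rose and 5 fell, with a median of -0.12. That is 43.8% of the list, beside 12.5% of all features, and the median absolute change was 0.37, beside 0.14. This list too was chosen with earlier results known. Fgf8, a growth factor gene of the primitive streak, fell by 1.59 ± 0.08 on the log2 scale, from -1.99, -2.09 and -2.12 to -3.77, -3.60 and -3.59, and Trh, a hormone gene used as a marker of early definitive endoderm, by 1.12 ± 0.07. Tdgf1 (-1.04 ± 0.08) and Nodal (-0.63 ± 0.06), components of the inhibited pathway itself, also fell. The 2 that rose were Hhex (0.37 ± 0.07) and Sp5 (0.60 ± 0.10). Each passed in 2 of the 6 fits that left out an array. Cer1 and Mixl1 were well above background on 0 arrays, while 15 of the 16 measured genes were so on all 6. The rises numbered 1 without DMSO replicate 1 or 2 and 0 without DMSO replicate 3 or SB431542 replicate 1 or 2.

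Among paralogs of the markers, the largest changes were of other GATA genes. Gata1, best known from red blood cells, lay at -3.16, -2.97 and -3.16 with DMSO and at -1.99, -1.88 and -2.07 with SB431542 and rose by 1.12 ± 0.08 (limma adjusted p = 0.00115). Gata3, a trophoblast factor, rose by 0.97 ± 0.11, from -4.55, -4.49 and -4.57 to -3.65, -3.71 and -3.34. Both passed in 6 of 6 fits without an array. Gata2 (0.14 ± 0.13), Gata5 (0.26 ± 0.09), Sox18 (0.03 ± 0.09), Foxa1 (-0.26 ± 0.07) and Foxa3 (0.20 ± 0.10) did not pass. Of 9 measured paralogs 2 rose and 1, Pdgfrb, fell, and it no longer did without any DMSO array or without SB431542 replicate 2 or 3. The share past the threshold was 33.3%, beside 12.5% of all features. Whether the change of a paralog differs from that of its marker was not tested.

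Genes of the FGF and NANOG branch, by which epiblast and primitive endoderm fates are set, had changes of both signs. Of 12 measured, 1 rose and 2 fell, with a median change of 0.01 and a median absolute change of 0.18, beside 0.14 for all features. The share past the threshold was 25%, beside 12.5% of all features. Fgf4, the ligand that favours primitive endoderm, fell by 0.37 ± 0.05 on the log2 scale and the ERK phosphatase gene Dusp6 by 0.54 ± 0.06, both in 6 of 6 fits without an array. Fgfr2, the FGF receptor enriched in primitive endoderm, lay at -2.20, -2.17 and -2.08 with DMSO and at -1.84, -1.59 and -1.73 with SB431542 and rose by 0.43 ± 0.08 (limma adjusted p = 0.0219), with another probe at 1.31. It passed in 1 of the 6 fits that left out an array, so that 0 genes of this branch rose without any 1 DMSO array or without SB431542 replicate 2 or 3. Nanog, which opposes Gata6, changed by -0.02 ± 0.06.

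By likeness of pattern over the 6 arrays, measured as the root mean square difference of log2 values after centring each gene on its own mean, the nearest of 15645 other genes to Cubn were Ly6h (0.0452), Id4 (0.0527) and Flt1 (0.0547). Nearest to Pdgfra were Echdc2 (0.0138), Igdcc3 (0.0171) and Cyria (0.0183). Within a difference of 0.1 there were 125 genes for Cubn and 1268 for Pdgfra. The cut is the same for both, while the SD in DMSO was 0.16 for Cubn and 0.03 for Pdgfra. Why the counts differ was not tested. With 2 conditions, likeness at this cut does not single out the genes named.

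**Figure D4:**
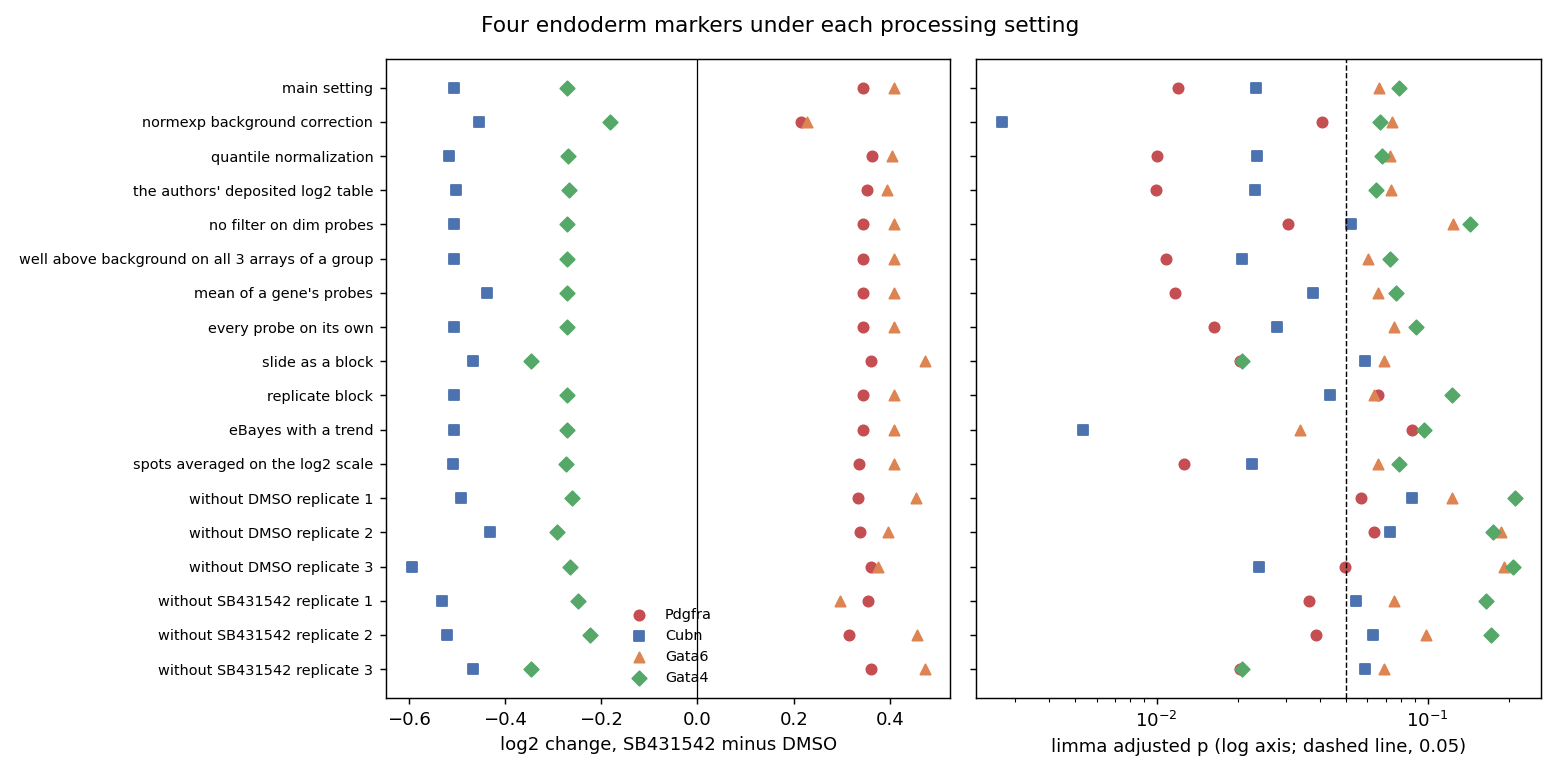
Log2 change (left, SB431542 minus DMSO) and limma adjusted p (right, log axis, dashed line at 0.05) of Pdgfra, Cubn, Gata6 and Gata4 under the main setting and each alternative, 1 line per setting. The direction is the same under each setting shown for these 4 genes, while Pdgfra and Cubn miss the threshold under several, Gata6 passes under 1, and Gata4 passes in the fit without the slide 2 array, which is drawn both as the slide block and as SB431542 replicate 3 left out.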

How the data were processed

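Total RNA of 3 DMSO and 3 SB431542 samples was measured on 1-colour Agilent arrays, grouped by the sample titles. The deposited scanner files hold linear intensity values, background-subtracted and detrended by Agilent Feature Extraction (version 10.7 per the submitters' processing notes), and flags that are each a score of 0 or 1, per the file headers. A deposited table of log2 values, normalized between arrays by the authors in a way not given in the sources used here, served as an alternative (column medians of 5.18, correlation with the own array 0.99988 or above).

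Outlier spots were left out, which removed 81 of 55681 probes, spots of a probe were averaged, and log2 signal was taken relative to the array's 75th percentile over probes (452.3 to 563.9). No spot was saturated, and 63.9% to 66.2% of spots were well above background. The number of arrays limits the precision. A probe was kept where 3 or more of the 6 arrays measured it well above background (36184 probes). Accessions were matched to RefSeq (GRCm38.p6), naming 27200 of 55600 probes. The array grid uses mm9, so coordinates are given only for the RefSeq promoters. The brightest probe stood for a gene, and 12 of the 13 marker probes entered the fit. limma 3.58.1 (R 4.3.3) was used without trend, two-sided, with Benjamini-Hochberg adjustment, and was tested on simulated data. The normexp alternative, planned on the mean spot signal, was run on the median one. Other alternatives were the authors' table, quantile normalization, each probe on its own, a filter within groups, a stricter threshold, no filter on dim probes, the mean of a gene's probes, a variance trend, blocks and leaving out each array. The genes named were all 10 markers, up to 4 genes of each further list with the smallest adjusted p past the threshold, fixed checks of the treatment, and nearest patterns. Others that are given did not pass, were below background, or complete a count, and were chosen after their values were seen. Markers and lists were chosen with earlier results of these data known. Same-numbered arrays did not deviate together (correlations of 0.002, 0.072 and -0.058 over features).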

Additional observations from a re-analysis of the deposited data

Results flagged for a closer look

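Of 13 marker probes, the 1 that did not enter the fit, a dimmer Foxa2 probe, was well above background on 1 SB431542 array (replicate 3, on slide 2) and on 0 DMSO arrays. Its levels were -7.42, -5.83 and -6.25 with DMSO and -7.05, -6.79 and -5.14 with SB431542, which overlap. The brighter Foxa2 probe was lowest on that same array, at -3.72. Groups of 3 arrays are too small to test for single outlying arrays.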

How the results depend on the processing

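Over 17 distinct alternatives, with the slide block and leaving out SB431542 replicate 3 counted once since they are the same fit, 152 of 170 values of single markers kept their direction and their side of the threshold, 12 lost a call, 2 gained one and 4 reversed. The reversals were all of markers that did not pass: Sox17 was 0.01 with normexp and 0.03 (0.026) with the mean of its probes, Foxa2 was 0.003 without DMSO replicate 1, and Sox7 was -0.047 without SB431542 replicate 1. Without an array Sox7 reached 0.175 and Foxa2 -0.168. The count of markers higher was 0 with the replicate block, and 0 for both directions at an adjusted p under 0.01. With no filter on dim probes 0 were lower. Leaving out an array gave 0 to 1 markers higher and 0 to 1 lower, and on slide 1 alone the 1 that was lower was Gata4 and not Cubn. All features past the threshold numbered 3245, 2093 with no filter (37033 tested), 1565 with the replicate block, 1222 at the stricter threshold and 1456 to 2925 without an array. Over all features same-numbered arrays do not deviate together, so the block was not read as a pairing. Among the markers, however, Amn, Foxa2, Gata6, Hnf4a and Sox7 were highest on replicate 1 of both groups. Amn, Cubn, Gata6 and Hnf4a were lowest on replicate 3 of both. With the block the SE was smaller for Gata6 (0.072), Cubn (0.071), Sox7 (0.09), Foxa2 (0.094), Hnf4a (0.055), Amn (0.096) and Gata4 (0.073). The SE was larger for Pdgfra (0.062), Sox17 (0.089) and Dab2 (0.107). Whether markers share a replicate effect was not tested. The block changed 1 marker's call, that of Pdgfra (adjusted p = 0.0657). Averaging spots on the log2 scale, the list counts without single arrays and the marker sums without their leading gene were chosen after seeing the data. The cause of these differences was not tested. Leaving out an array also means fewer arrays, and no filter also means more features. Markers near background, such as the dimmer Foxa2 and Cubn probes, allow no firm statement.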
